A study of Mus musculus with 6 samples.

Results

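Proteasome subunit genes were examined in sorted long-term hematopoietic stem cells of mice that carried a single floxed Myc allele with or without the Mx1-Cre transgene. Members were all rows of the count table whose symbol is Psma, Psmb, Psmc or Psmd followed by a number. The rule found 34 of the 11779 genes, and all 34 passed the filter on low counts. They comprised 7 genes of the 20S alpha ring, 4 structural and 3 standard catalytic genes of the 20S beta ring, and the immunoproteasome gene Psmb10. A further 6 encode 19S ATPases, 10 encode 19S non-ATPase subunits and 3 encode 19S assembly chaperones. Psma3, Psmb8, Psmb9, Psmb11 and Psmd13 were not analysed here.

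Libraries came from female mice aged 8 weeks, 3 of genotype c-Mycfl/+ (WT) and 3 of c-Mycfl/+Mx1Cre (HET), which are numbered 1, 3 and 4 in each group. All 6 libraries share the floxed allele, and HET adds Cre under the interferon-responsive Mx1 promoter, which is not specific to stem cells. Deletion was induced with 3 injections of 6 mg/kg poly(I:C), a double-stranded RNA analog that triggers interferon, and the design text does not state separately whether WT mice received it. Bone marrow cells were sorted as lineage-negative, Sca1+, c-Kit+, CD48- and CD150+. The sources do not say whether a library is 1 animal or a pool, so p-values measure the spread between these libraries. The sample titles name the HET libraries as knockouts, but their genotype label is heterozygous, and that label was followed.

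The proteasome is the protease that degrades ubiquitin-tagged proteins. Its 20S core is a barrel of alpha rings, which form the gate, around beta rings, which hold the cutting sites. The 19S cap recognises ubiquitin, removes it and feeds the unfolded protein into the core through a ring of ATPases. Immune cells and cells exposed to interferon replace the standard catalytic subunits with immunoproteasome forms, of which Psmb10 takes the place of Psmb7. Mammalian proteasome genes are largely controlled together, among others by NFE2L1, which binds antioxidant response elements as a dimer with a small MAF protein. Blood stem cells are known for low protein synthesis and for sensitivity to a failure of protein quality control.

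Totals ranged from 4249490 to 5600856 counts in WT and from 4627452 to 9886223 in HET, with HET 1 the deepest library. The members held between 0.289% (HET 3) and 0.377% (HET 1) of all counts, and single members had from 17 to 3102 counts in a library. Myc, the deleted gene, averaged 472 ± 61.1 CPM across the WT libraries and 351 ± 49.9 CPM across the HET libraries (SD, n = 3 each), where CPM is counts scaled to a common library total. Its log2 fold change of -0.43 ± 0.12 (SE) did not pass the test used below (edgeR adjusted p = 0.312, unadjusted p = 0.00235). Myc lay at 427.4 to 541.8 CPM in WT and at 293.8 to 386.7 CPM in HET, without overlap. Such separation with HET lower was found in 5.64% of all genes tested. The sort markers Kit (1091.3 to 1258.1 CPM), Slamf1 (57.0 to 84.0 CPM) and Ly6a (21.8 to 40.1 CPM) were present in every library. Cd48, the negative marker, lay between 1.7 and 3.2 CPM in WT and between 3.7 and 9.0 CPM in HET (edgeR adjusted p = 0.849). Markers of other marrow cells were also measured. All 9 neutrophil markers were tested and summed to 144.8 to 623.7 CPM in WT and 209.1 to 464.0 CPM in HET. All 5 megakaryocyte markers were tested and summed to 751.7 to 765.9 CPM in WT and 897.0 to 1089.7 CPM in HET. Most of each sum was Vwf and Itga2b. Vwf lay at 371.8 to 462.7 CPM in WT and 384.8 to 478.5 CPM in HET. Itga2b lay at 263.3 to 316.3 CPM in WT and 364.0 to 560.5 CPM in HET, without overlap (edgeR adjusted p = 0.132). The 3 tested of 7 erythroid markers summed to at most 31.3 CPM, the 3 tested of 7 T and NK markers to at most 30.0 CPM, and Cd79b, the single tested B lineage marker, to at most 23.4 CPM. Of the 5 monocyte and macrophage markers 3 were tested, with sums of 135.7 to 186.1 CPM in WT and 148.5 to 163.3 CPM in HET, nearly all of it Lyz2. Flt3 was the 1 tested of 4 dendritic markers, at 32.7 to 61.5 CPM over both groups. Listed at 0 in 1 library each were Ly6c2 (WT 4) and Klrb1c (HET 4).

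Promoter sequence was inspected for elements of the factors that bear on these genes, and the matches in members are shown because they mark where such a factor could be looked for. RefSeq promoters of GRCm38.p6, from 250 bases before to 50 bases after the start, matched 27 of the 34 members. The core of the antioxidant response element, TGACNNNGC on either strand, occurred in 5 of the 27 (18.5%), against 17.1% of 8769 tested genes with a promoter. The E-box CACGTG, which MYC and MAX can bind, occurred in 3 (11.1%), against 12.2% of tested genes. The box CCAAT was in 10 (37.0%), against 43.3%, and the core of the interferon-stimulated response element (GAAA, any 2 bases, GAAA) in 3 (11.1%, Psmb3, Psmd4 and Psmd9), against 3.8%. These shares are a description of letters in a window and were not tested. The matches to the first pair of motifs that lie before the start with 12 bases on each side follow, 5′ to 3′ on the strand of the motif, with the motif in capitals.
Psmb5 response element: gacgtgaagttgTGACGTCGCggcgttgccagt
Psmc6 response element: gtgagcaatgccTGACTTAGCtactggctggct
Psmd9 response element: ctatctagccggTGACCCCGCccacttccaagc
Psmd9 E-box: tcatctgaaaacCACGTGgtctatctagcc
Psma4 E-box: ttctgcacagtcCACGTGggcagactgagc
Psmb10 E-box: gttcccaacgccCACGTGgtggcacgccca
The windows lie at chr14:54618022-54618054 on the minus strand (Psmb5), chr14:45329585-45329617 on the minus strand (Psmc6), and chr5:123228147-123228179 and chr5:123228127-123228156 on the plus strand (Psmd9). Those of Psma4 and Psmb10 lie at chr9:54950707-54950736 on the plus strand and chr8:105938491-105938520 on the minus strand. The motifs of Psmb5 and Psmd9 lie within 51 bases of the RefSeq start, and both Psmd9 motifs fall in the same stretch. GENCODE M21 extends Psmd9 from 123169413 to 123250131 on the plus strand, so the Psmd9 windows lie inside that gene model and far from its outermost start.

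The main comparison asked whether the proteasome genes differed between HET and WT cells. None did in the edgeR quasi-likelihood test with Benjamini-Hochberg adjustment over all 10869 genes tested. Of the 34 members 0 rose, 0 fell and 34 did not pass the adjusted threshold of 0.05, a threshold that 0.258% of all genes passed (0.0368% higher and 0.221% lower in HET). At an unadjusted p under 0.05 the count was also 0, against 5.22% of all genes, and DESeq2 and limma-voom, which called 0.589% and 0.212% of all genes, likewise called 0 members and gave 0 an unadjusted p under 0.05. Log2 fold changes (HET against WT) ran from -0.56 to 0.43, with 17 positive and 17 negative values. Their median was 0.01, beside a median of 0.00 over all genes tested.

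The estimates were narrow enough to bound the differences within 1.5-fold for most members, but not at the narrowest width computed. Standard errors of the log2 fold changes ran from 0.12 to 0.47, with a median of 0.17. The 95% interval lay within 1.5-fold of no difference in either direction for 25 members (73.5%). It did so for 45% of all genes, which reach lower counts. At the narrowest width computed, below 1.5-fold, the interval stayed inside for 2 members (5.88%), against 8.13% of all genes. Differences smaller than 1.5-fold were therefore not excluded for most members. It lay within 2-fold for 32 members (94.1%) and for 75.3% of all genes. Psmb5 and Psma8, at low levels, were the exceptions at that width. Groups were fully separated in 1 member, Psmd5, as they were, one way or the other, in 10.3% of all genes.

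**Figure D1:**
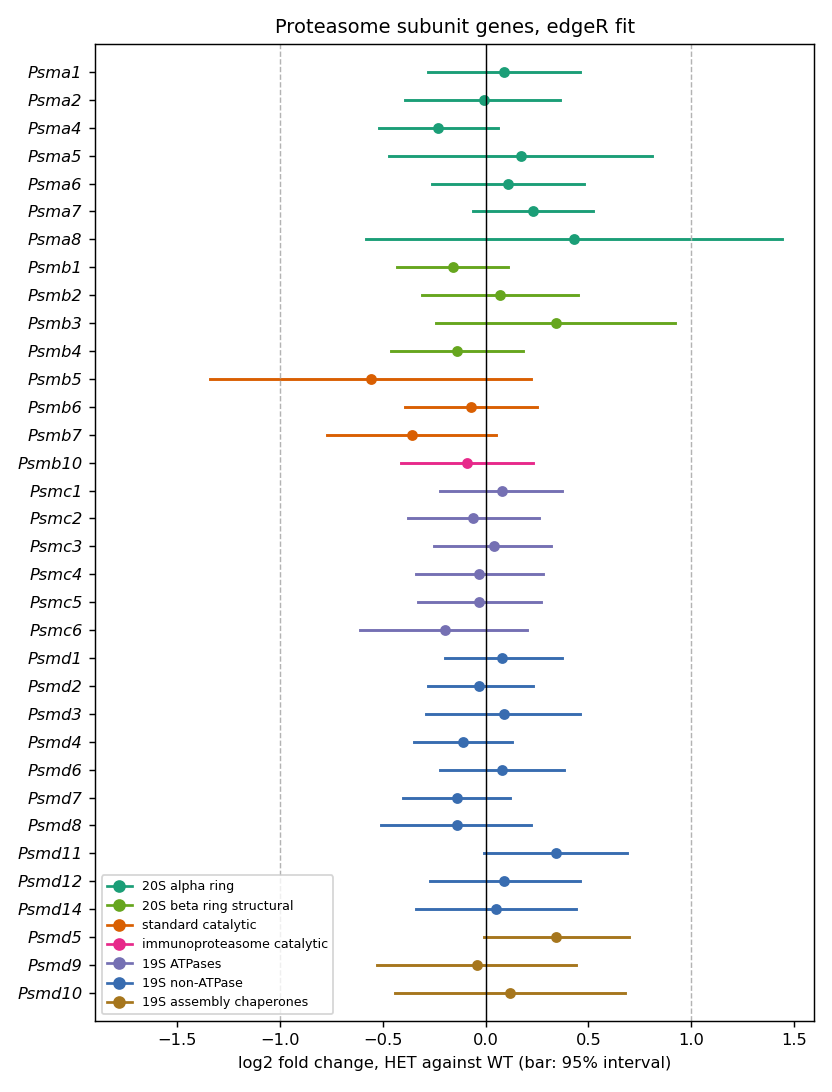
Log2 fold change of each member gene, HET against WT, from the edgeR fit (points) with 95% intervals (bars), coloured by role, with dashed lines at a 2-fold difference. Every interval includes 0, and those of Psmb5 and Psma8 extend past 2-fold.

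The catalytic subunits set the cutting specificity of the core. Psmb5, which carries the chymotrypsin-like site (GRCm38 chromosome 14, 54614119 to 54618022, minus strand), measured 14.4, 8.8 and 15.0 CPM in WT, against 7.0, 8.3 and 10.7 CPM in HET, with libraries in the order 1, 3 and 4 here and below. WT 3 fell among the HET libraries. The log2 fold change was -0.56 ± 0.38 (SE, edgeR adjusted p = 0.995), and its interval ran from 0.395 to 1.17 times the WT level. Psmb7, the trypsin-like subunit (chromosome 2, 38588036 to 38644087, minus strand), measured 73.1, 73.9 and 63.2 CPM in WT, against 72.8, 44.5 and 45.0 CPM in HET. HET 1 lay inside the WT range and HET 3 and HET 4 below it. Its log2 fold change was -0.36 ± 0.20 (SE, edgeR adjusted p = 0.979), and -0.65 without HET 1. The lowest adjusted p for Psmb7 in any fit run was 0.19.

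Psmb6, the caspase-like subunit (chromosome 11, 70525367 to 70527858, plus strand), measured 101.0, 121.3 and 112.1 CPM in WT, against 125.4, 107.5 and 84.8 CPM in HET. The groups overlapped, with HET 1 the highest library and HET 4 the lowest (log2 fold change -0.07 ± 0.15 SE, edgeR adjusted p = 0.995). Over these 3 standard catalytic genes the median log2 fold change was -0.36, and each was negative with none past the threshold. Psmb6 turned to 0.07 without HET 4. Their mean log2 level relative to the WT mean was 0.05, -0.09 and 0.04 in WT, against -0.18, -0.42 and -0.41 in HET. This role group alone had all its HET levels below all its WT levels among the 7 role groups, a pattern noticed after the values were seen and not tested, and Psmb5, with 38 to 80 counts a library, weighs on it as much as the others.

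Psmb10 is the immunoproteasome counterpart of Psmb7 (chromosome 8, 105935735 to 105938444, minus strand). It measured 79.9, 86.5 and 77.0 CPM in WT, against 75.8, 83.3 and 70.2 CPM in HET, so all 6 libraries lay close together and the groups overlapped. The log2 fold change was -0.09 ± 0.15 (SE, edgeR adjusted p = 0.995), with an interval from 0.754 to 1.17 times the WT level. Per kilobase of its longest coding transcript, the Psmb10 level was 61.9 ± 3.72 CPM in WT and 58.3 ± 5.03 CPM in HET, beside 60.4 ± 5.13 and 46.6 ± 14.0 CPM for Psmb7 (SD, n = 3 each). In WT the pair therefore differed by less than the spread between libraries.

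The balance between Psmb10 and the standard catalytic genes was also taken within each library, which removes any common scaling. Mean log2 CPM of Psmb5, Psmb6 and Psmb7 subtracted from log2 CPM of Psmb10 gave 0.74, 0.99 and 0.69 in WT, against 0.89, 1.26 and 1.01 in HET. The means were 0.81 ± 0.16 across the WT libraries and 1.05 ± 0.19 across the HET libraries (SD, n = 3 each), a difference of 0.25. The groups overlapped, and the exact two-sided permutation test gave p = 0.2, where 0.1 is the smallest p that 3 against 3 libraries allow. The difference lay between 0.14 (without HET 3) and 0.34 (without WT 3) when 1 library was left out.

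**Figure D2:**
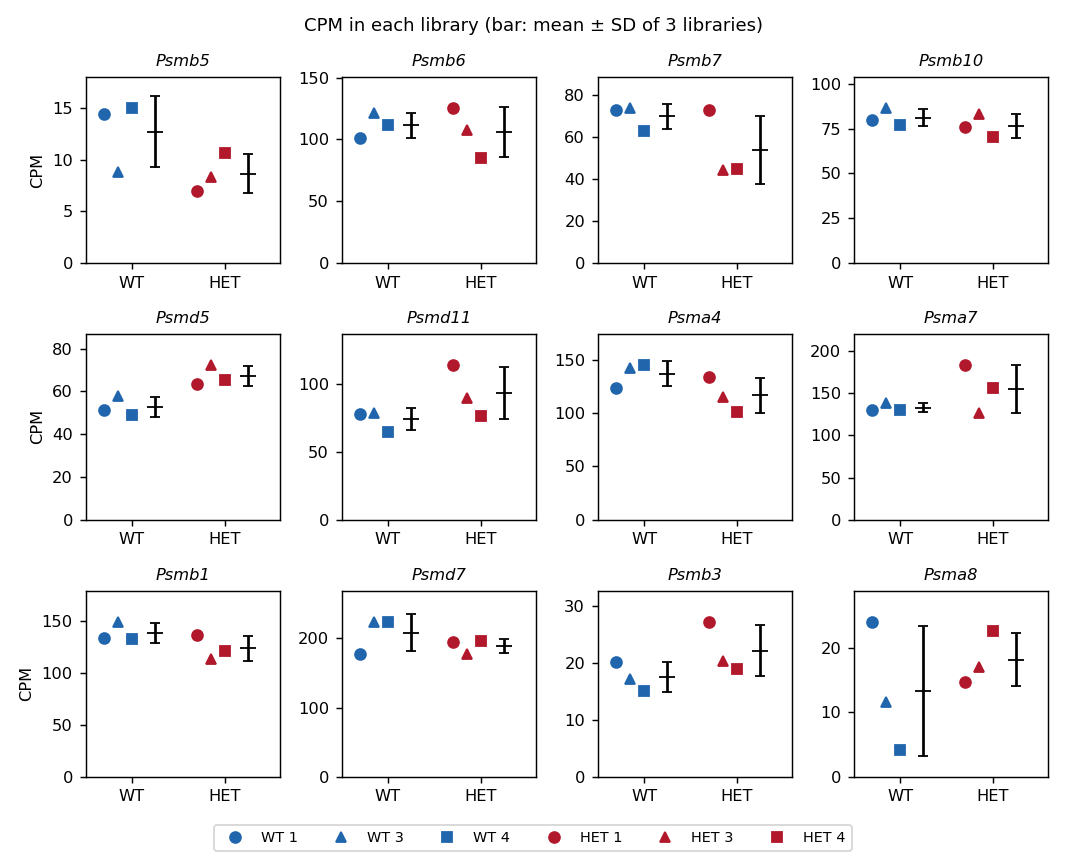
CPM in each library for the catalytic genes (top row) and the members of smallest p in each direction, with the mean and SD of 3 libraries beside the points. Psmd5 is the member without overlap, at 49.1 to 58.0 CPM in WT and 63.4 to 72.4 CPM in HET.

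Of the 7 alpha ring genes, 5 had positive and 2 negative log2 fold changes, with a median of 0.11. Psma7 (chromosome 2, 180036374 to 180042433, minus strand) measured 129.7, 138.9 and 130.7 CPM in WT, against 183.6, 126.7 and 155.9 CPM in HET. HET 1 and HET 4 lay above WT and HET 3 below it (log2 fold change 0.23 ± 0.14 SE, edgeR adjusted p = 0.987). Psma4 (chromosome 9, 54950790 to 54958030, plus strand) measured 123.4, 142.0 and 145.2 CPM in WT, against 133.7, 115.4 and 100.9 CPM in HET. HET 1 lay within the WT range (log2 fold change -0.23 ± 0.14 SE, adjusted p = 0.988). Psma1, Psma2, Psma5 and Psma6 had log2 fold changes between -0.01 and 0.17.

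Psma8 encodes an alternative alpha subunit known from germ cells, where it can take the place of the Psma7 product. It measured 24.0, 11.5 and 4.1 CPM in WT, against 14.6, 17.0 and 22.6 CPM in HET (chromosome 18, 14706151 to 14762301, plus strand). The WT libraries spanned the whole HET range, and WT 4 held the lowest count of any member, 17. The interval of its fold difference, 0.668 to 2.72, was the widest among the members. Its log2 fold change of 0.43 ± 0.47 (SE) became 1.18 without WT 1 and 0.02 without WT 4. Per kilobase it was the member with the lowest WT level, at 7.80 ± 5.95 CPM beside 115 ± 4.34 CPM for Psma7 (SD, n = 3 each).

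Of the 4 structural beta genes, 2 were positive and 2 negative, with a median of -0.04. Psmb3 (chromosome 11, 97703399 to 97713500, plus strand) measured 20.2, 17.2 and 15.0 CPM in WT, against 27.2, 20.3 and 18.9 CPM in HET. HET 4 lay below WT 1, so the groups overlapped (log2 fold change 0.34 ± 0.28 SE, edgeR adjusted p = 0.995). Psmb1 (chromosome 17, 15475021 to 15499751, minus strand) measured 134.2, 149.5 and 132.4 CPM in WT, against 136.9, 113.4 and 121.0 CPM in HET. HET 1 lay within the WT range (log2 fold change -0.16 ± 0.13 SE, adjusted p = 0.995). Psmb4 and Psmb2 had log2 fold changes of -0.14 ± 0.15 and 0.07 ± 0.18 (SE).

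The 6 ATPases, which unfold substrates and open the core gate, had the narrowest range of differences, with log2 fold changes from -0.20 (Psmc6) to 0.08 (Psmc1) and a median of -0.03. Psmc3 was the most abundant per kilobase, at 121 ± 9.51 CPM across the WT libraries and 124 ± 25.9 CPM across the HET libraries (SD, n = 3 each). Its libraries measured 202.4, 236.7 and 223.5 CPM in WT, against 279.5, 191.5 and 206.8 CPM in HET, with HET 1 above and HET 3 below all WT libraries. Psmc6 measured 88.9, 74.1 and 51.3 CPM in WT, against 66.8, 52.1 and 67.4 CPM in HET, and here the wider spread was within WT. The remaining ATPases had intervals that stayed between 0.769 and 1.29 times the WT level.

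Of the 10 non-ATPase subunits, 6 were positive and 4 negative, with a median of 0.07. Psmd11, a subunit of the 19S lid (chromosome 11, 80428615 to 80473248, plus strand), measured 78.3, 79.0 and 64.6 CPM in WT, against 114.1, 89.6 and 76.6 CPM in HET. HET 4 lay below WT 1 and WT 3. Its log2 fold change was 0.34 ± 0.17 (SE, edgeR adjusted p = 0.950), the smallest p among the members, and 0.16 without HET 1. Psmd7 (chromosome 8, 107580381 to 107588464, minus strand), the lid partner of the deubiquitinase Psmd14, measured 177.5, 224.3 and 223.5 CPM in WT, against 194.3, 178.0 and 196.0 CPM in HET. The HET libraries lay inside the WT range (log2 fold change -0.14 ± 0.12 SE, adjusted p = 0.995). Psmd14 itself had 0.05 ± 0.19, and the ubiquitin receptor Psmd4 had -0.11 ± 0.12 (SE).

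The scaffold subunits Psmd1 and Psmd2 had log2 fold changes of 0.08 ± 0.14 and -0.03 ± 0.12 (SE). Psmd2 had the highest mean CPM of the members, at 273 ± 19.7 across the WT libraries and 267 ± 39.9 across the HET libraries (SD, n = 3 each). Psmd8, another lid subunit, measured 126.8, 128.6 and 115.7 CPM in WT, against 146.7, 79.8 and 107.4 CPM in HET. Its HET libraries lay on either side of WT, with HET 3 the lowest. The other lid genes Psmd3, Psmd6 and Psmd12 had values from 0.08 to 0.09.

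Assembly chaperones bind ATPase subunits while the ring is being built and are absent from the finished complex. Psmd5 (chromosome 2, 34849734 to 34874968, minus strand) measured 51.1, 58.0 and 49.1 CPM in WT, against 63.4, 72.4 and 65.5 CPM in HET. All HET libraries lay above all WT libraries, a pattern that 4.69% of all genes had in that direction, so 1 of 34 members is near the background. Its log2 fold change was 0.34 ± 0.17 (SE, edgeR adjusted p = 0.951), between 0.29 and 0.42 when 1 library was left out, and its lowest adjusted p in any fit was 0.606. The other chaperones Psmd9 and Psmd10 had log2 fold changes of -0.04 ± 0.23 and 0.12 ± 0.27 (SE), with overlapping groups.

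The members were spread more widely among HET than among WT libraries, with a mean level of 0.00 ± 0.06 for WT against 0.01 ± 0.15 for HET (SD, n = 3 each, log2 relative to the WT mean). By library, their mean log2 level relative to the WT mean was 0.03, 0.04 and -0.07 in WT, against 0.17, -0.14 and 0.01 in HET. HET 1 was the highest of the 6 libraries in 16 members (47.1%), against 17.7% of all genes tested, and HET 3 the lowest in 17 (50%), against 18.4%. HET 1 lay above HET 3 in 29 of the 34 members. Psmd5, for example, went the other way, with HET 3 highest. The 3 groups in which HET 1 was highest and HET 3 lowest were the structural beta genes, the ATPases and the non-ATPase subunits. In the non-ATPase group the levels were 0.23 in HET 1 and -0.15 in HET 3. The members' median log2 fold change was -0.09 without HET 1 and 0.09 without HET 3, and 0 members passed in either fit.

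HET 1 was also the deepest library and had the highest megakaryocyte marker level, 0.82 above the WT mean, against 0.13 in HET 3. After random thinning of HET 1 to 50.7% of its counts, the members' level in it was 0.16 and it was the highest library for 15 members. With the trend of each library with transcript length and GC content removed, the levels were 0.14 in HET 1 and -0.09 in HET 3. Neutrophil marker levels were 0.32, 1.21 and -1.53 in WT, against 0.89, -0.96 and -0.28 in HET. The members' levels in the same libraries were 0.03, 0.04 and -0.07 in WT, against 0.17, -0.14 and 0.01 in HET. The part of the marker levels in the spread of the proteasome genes was not tested. In bulk samples, fewer cells of a type and less RNA per cell cannot be told apart.

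**Figure D3:**
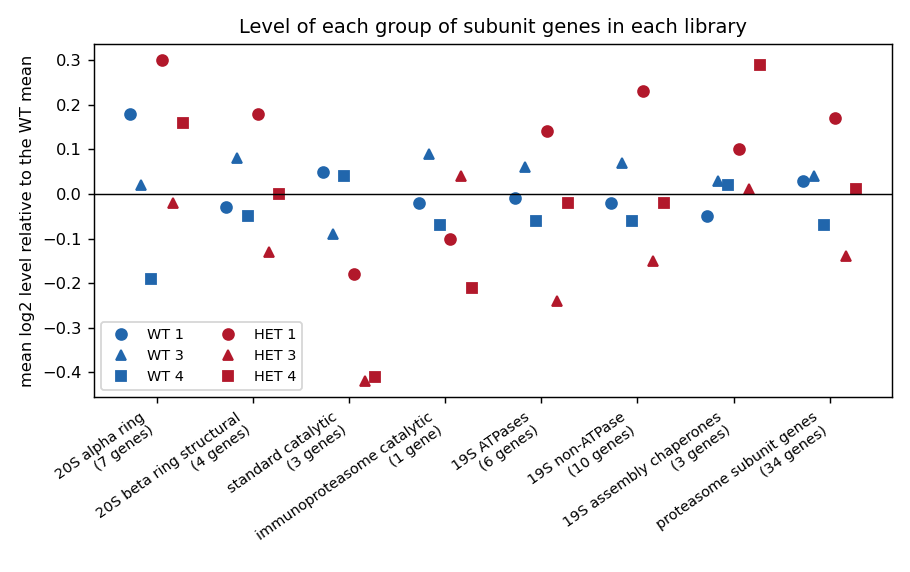
Mean log2 level of each role group in each library, relative to the WT mean, with WT in blue and HET in red and the library number as the symbol shape. HET 1 (0.17) and HET 3 (-0.14) lie on either side of the WT libraries over all members, and the standard catalytic genes have every HET library below WT.

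Subunits of the finished core are present in equal numbers, but the estimated levels of the members' transcripts differed. Per kilobase of the longest coding transcript, WT levels ran from 7.80 CPM for the alternative subunit gene Psma8 to 140 CPM for Psmb6, with a median of 61.4 CPM. Standard core genes at the low end were Psma5 (11.6 ± 2.48 CPM), Psmb5 (14.2 ± 3.83), Psma2 (18.8 ± 1.44) and Psmb3 (22.8 ± 3.40; SD, n = 3 each). After Psmb6 (140 ± 12.7) came the cap genes Psmd7 (132 ± 16.9) and Psmc3 (121 ± 9.51), the core gene Psma4 (117 ± 10.1), the cap gene Psmd4 (116 ± 6.82) and the core gene Psma7 (115 ± 4.34). The chaperones Psmd5, Psmd9 and Psmd10 ranged from 11.3 to 15.4 CPM per kilobase, over longest coding transcripts of 4397, 2597 and 1430 bases.

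Part of this order coincided with sequence shared between genes. For each member the share of 50-base windows of its longest coding transcript that also occurs in a transcript of another annotated gene was counted. It was 57.1% for Psmb5, 55.8% for Psmb3 and 55.4% for Psma5, the highest values among the members, while 17 members had no shared window. Windows of Psmb3 matched 7 other genes, and those of Psmb5 matched 3, Psmb5-ps among them. Psma4 (31.5%), Psmb7 (28.1%, all in Nek6) and Psmd2 (26.4%) followed, with WT levels of 117, 60.4 and 92.1 CPM per kilobase. Per kilobase Psma2 was low with 3.5% shared, but over a longest coding transcript of 2911 bases. In CPM it measured 54.7 ± 4.18 in WT, beside 64.1 ± 8.8 for Psma1, whose transcript has 1201 bases (SD, n = 3 each). Which transcript the cells used was not tested. How the authors' counting treated such reads is not stated in the labels, so levels of members with shared windows, above all Psmb5, Psmb3 and Psma5, are uncertain. The part of the shared sequence in the low levels of Psmb5, Psmb3 and Psma5 was not tested.

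**Figure D4:**
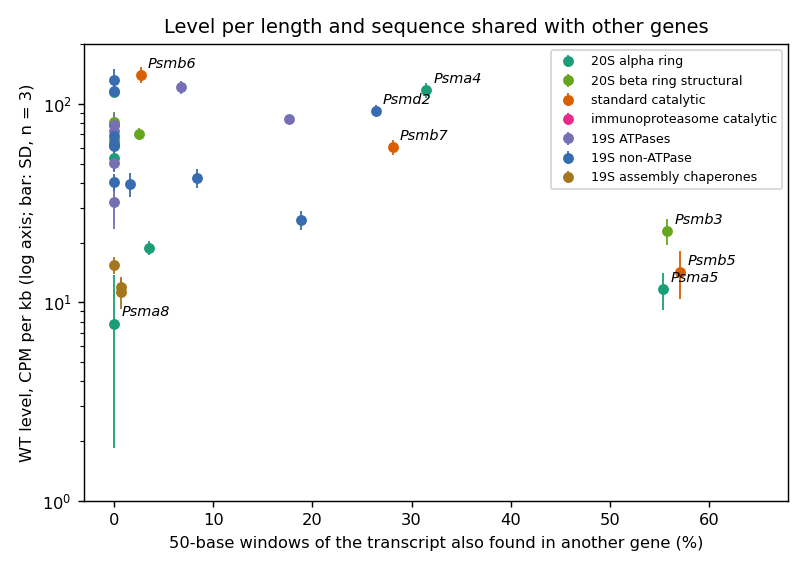
WT level per kilobase of each member (log axis, mean and SD of 3 libraries) against the share of 50-base windows of its transcript found in another gene. Psmb5, Psmb3 and Psma5 stand apart at 55.4% to 57.1% and have WT levels of 11.6 to 22.8 CPM per kilobase.

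Other genes of the pathway were counted by lists. Of the 5 tested regulators that dock on the core ends (4 activators and the inhibitor Psmf1), 0 passed and the median log2 fold change was 0.08. Psme2, which forms the interferon-inducible activator ring with Psme1, measured 13.0 ± 4.07 CPM across the WT libraries and 17.6 ± 5.03 CPM across the HET libraries (SD, n = 3 each; edgeR adjusted p = 0.995). Of the 5 chaperones of 20S assembly 0 passed, with a median of -0.13. Pomp, which matures the beta ring, measured 123.2, 114.0 and 119.5 CPM in WT, against 129.9, 68.9 and 123.5 CPM in HET. HET 3 was the lowest library for Pomp (log2 fold change -0.14 ± 0.19 SE, adjusted p = 0.995). The other chaperones of this list did not share that pattern, as Psmg1, Psmg2, Psmg3 and Psmg4 were each lowest in another library.

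Of 7 tested further subunits and bound proteins 0 passed (median 0.05). Akirin2, which guides nuclear import of proteasomes, had the smallest p among them, at 61.6 ± 5.31 CPM across the WT libraries and 74.7 ± 10.6 CPM across the HET libraries (SD, n = 3 each; edgeR adjusted p = 0.993). Of 11 shuttle and p97 genes 0 passed (median 0.02). Bag6, a chaperone for misplaced membrane proteins, measured 369.7, 389.7 and 421.2 CPM in WT, against 349.4, 357.4 and 356.0 CPM in HET. Its HET libraries were all lower, as in 5.64% of all genes, and the difference did not pass (log2 fold change -0.15 ± 0.11 SE, adjusted p = 0.995).

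The list of transcriptional control held the single gene that passed among the wider lists given here. Of its 8 tested genes 1 fell, Maff, 0 rose and 7 did not pass, with a median of -0.12. Maff encodes a small MAF factor, and it measured 90.7, 65.3 and 85.9 CPM in WT, against 31.3, 43.2 and 31.4 CPM in HET (log2 fold change -1.20 ± 0.20 SE, edgeR adjusted p = 0.00511). The log2 fold change of Maff was -1.10 without WT 1 and -1.12 without HET 4, and its adjusted p was then 0.0626 and 0.0753. Mafk, a second small MAF gene, measured 119.1, 97.1 and 115.9 CPM in WT, against 87.4, 92.2 and 74.0 CPM in HET, also without overlap (log2 fold change -0.39 ± 0.15 SE, adjusted p = 0.745). Their partner Nfe2l1 measured 236.2, 211.3 and 210.1 CPM in WT, against 241.5, 239.2 and 227.4 CPM in HET (log2 fold change 0.11 ± 0.11 SE, adjusted p = 0.995). A match to the letters TGACNNNGC in the promoter window was held by 5 members, a share (18.5%) near that of tested genes (17.1%). Their log2 fold changes were -0.56 ± 0.38 (Psmb5), -0.20 ± 0.19 (Psmc6), -0.07 ± 0.15 (Psmb6), -0.04 ± 0.23 (Psmd9) and 0.09 ± 0.18 (Psmd12) (SE), none past the threshold. Whether any such match is bound was not tested.

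Immunoproteasome genes are textbook interferon targets, and Psmb10 was therefore set beside the interferon and antigen presentation lists. Of 13 tested interferon response genes 0 passed, 11 had positive log2 fold changes and the median was 0.37. Mx1, an antiviral GTPase gene, had the smallest p and measured 4.1, 2.4 and 4.1 CPM in WT, against 9.2, 6.1 and 16.8 CPM in HET (log2 fold change 1.6 ± 0.5 SE, edgeR adjusted p = 0.450). Its groups did not overlap, which held for 3 of the 13, all higher in HET, against 4.69% of all genes in that direction. Zbp1, another of these, measured 18.5 ± 1.34 CPM across the WT libraries and 32.0 ± 7.52 CPM across the HET libraries (SD, n = 3 each; edgeR adjusted p = 0.517). Stat2, a subunit of the interferon-activated factor, measured 69.7 ± 10.3 CPM across the WT libraries and 90.3 ± 10.8 CPM across the HET libraries (SD, n = 3 each; edgeR adjusted p = 0.902). Of 11 tested genes of class I presentation 0 passed, with a median of 0.08. Tap1, the peptide transporter gene, measured 239 ± 11.3 CPM in WT against 267 ± 26.4 CPM in HET (adjusted p = 0.995). Tapbp, the 1 gene of this list without overlap, measured 223 ± 20.1 and 259 ± 8.22 CPM (adjusted p = 0.972). Irf1, an activator of immunoproteasome genes, measured 218 ± 17.6 and 182 ± 18.7 CPM (adjusted p = 0.950). Psmb10, at -0.09 ± 0.15 (SE), differed in sign from the medians of both lists, and the difference from them was not tested.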

How the data were processed

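Values deposited by the authors are raw counts, whole numbers for each gene in 6 libraries. As tools, the submitters' processing notes list STAR 2.5.2b with FastQC, limma and edgeR, and as genome mm10, giving neither role nor order. No source used here names the counter, its strand setting or the annotation, and the protocol fields describe another study and were not used. Every deposited gene reached at least 1.012 CPM in its second-highest library.

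Genes were kept by filterByExpr (10869 of 11779), scaled by TMM and tested with edgeR 4.0.16 in R 4.3.3 (robust quasi-likelihood F test, two-sided, group as the single term, Benjamini-Hochberg adjustment, threshold 0.05). The biological coefficient of variation was 20.7%. Standard errors came from the F statistic. Levels on the log2 scale used 0.5 CPM as a pseudocount. Alternatives were upper quartile or RLE scaling, a filter of 5 CPM in 3 libraries or none, DESeq2 1.42.0, limma-voom 3.58.1, a replicate block, HET 1 thinned, removal of length and GC trends (natural splines, 4 degrees of freedom) and leaving out each library. Gene positions, lengths and shared windows came from GENCODE M21 on GRCm38 (mm10), and promoters from RefSeq on GRCm38.p6. Scripts were tested on simulated data.

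Named genes were all members, with library values for catalytic genes, the 5 members of smallest p in each direction and those without overlap, and up to 3 genes of smallest p per wider list; 1 wider list is not reported here. Psmc3, Psmc6, Psmd8 and Nfe2l1 were given library values after their values were seen. Members and lists were chosen with earlier results of these data known. List genes were matched by symbol, 2 of them through Ensembl IDs. Intervals reflect 3 libraries a group.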

Additional observations from a re-analysis of the deposited data

How the results depend on the processing

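In every alternative 0 members passed. Over all genes, 28 passed as reported, 59 with DESeq2, 49 with the replicate block, and between 10 (without HET 4) and 68 (without HET 1) when 1 library was left out; without WT 1 the count was 11. The members' median stayed between -0.09 and 0.09 in every fit and was 0.00 with the block. Same-numbered libraries correlated in their deviations from the group means by 0.11, -0.05 and 0.07 for numbers 1, 3 and 4. Pairs of unlike number correlated by -0.18 to 0.12. Whether same-numbered libraries share a batch cannot be told from these values and was not tested. Members without overlap numbered 3 to 6 when 1 library was left out, where fewer libraries make overlap less likely. The share of all genes without overlap in those fits is not given here, so these counts have no background to be read against. With limma-voom the sign turned for the log2 fold change of Psmc4 (0.0062) and the log2 fold change of Psma2 (0.0080). With length and GC trends removed it turned for the log2 fold change of Psmc5 (0.024), the log2 fold change of Psmd2 (0.00050) and the log2 fold change of Psmg4 (0.0011). Leaving out 1 library in turn changed the sign of further small log2 fold changes, whose lowest and highest values follow. They were Psmc3 (-0.15 to 0.14), Psmb2 (-0.025 to 0.18), Psma1 (-0.070 to 0.20), Psma2 (-0.12 to 0.062), Psmc2 (-0.11 to 0.033), Psmc5 (-0.070 to 0.042), Psmd2 (-0.14 to 0.076), Psmd14 (-0.14 to 0.17) and Psmd9 (-0.14 to 0.11). They were also Psmc4 (-0.15 to 0.092), Psmd3 (-0.097 to 0.31), Psmd1 (-0.028 to 0.17), Psmd12 (-0.12 to 0.23), Psma6 (-0.058 to 0.29), Psmc1 (-0.092 to 0.19), Psmd8 (-0.40 to 0.043), Psmb6 (-0.21 to 0.072), Psmd6 (-0.0048 to 0.17) and Psmd10 (-0.10 to 0.28). Outside the members they were Txnl1 (-0.39 to 0.090), Ubqln4 (-0.15 to 0.011), Uchl5 (-0.071 to 0.38), Uba6 (-0.027 to 0.30), Pomp (-0.30 to 0.094) and Nsfl1c (-0.28 to 0.057). Maff no longer passed without WT 1 or without HET 4. The cause of these changes was not tested.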
